A study of Mus musculus with 35 samples.

Results

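The integrated stress response regulators Atf4, Ddit3, Trib3, Chac1, Nupr1, Sesn2, Ddit4, Fgf21, Atf5 and Ppp1r15a were followed in lumbar motoneurons of mice that carry the G93A mutant of human SOD1, a mouse model of amyotrophic lateral sclerosis (ALS). They are 10 of the 18193 genes that the array's probe sets name singly, and they were chosen by name with earlier results of these data known. The shares of members called therefore describe the set and are not independent support. All 16 probe sets naming one of the 10 genes and no other gene were taken, and 15 of them, which cover all 10 genes, passed the study's filter on intensity and spread. The transcript left out by the filter, Atf4 1439258_at, stayed between 2.12 and 2.80 on the log2 scale in the 35 mice.

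Motoneurons were cut by laser from thionin-stained lumbar cord sections, 300 cells per mouse, and their amplified RNA was hybridised to 1 Affymetrix mouse genome array per mouse. At week 11, before motor signs, the groups were SOD1G93A mice (strain B6.Cg-Tg(SOD1-G93A)1Gur/J, n = 8) and WT mice (C57BL/6J, n = 6). At week 15, the symptomatic stage, they were SOD1G93A mice given vehicle (labelled a placebo, n = 7), SOD1G93A mice given granulocyte colony-stimulating factor (G-CSF, n = 7) and WT mice (n = 7). Per the study's methods the SOD1G93A mice were females, G-CSF or vehicle came from subcutaneous osmotic pumps worn from week 11 to week 15, and WT mice were littermates. The week-11 mice were another cohort, and no pump is described for them or for the WT mice. Age, pump and cohort therefore cannot be told apart in SOD1G93A mice, nor can age and cohort in WT mice, nor genotype and pump at week 15. The model carries the mutant human gene at high copy number, which is expressed in glia and other cells as well as in motoneurons, and the dissection takes the motoneurons that remain at each age.

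In the integrated stress response, kinases that sense amino acid shortage, misfolded protein, viral RNA or haem deficiency phosphorylate the initiation factor eIF2. General translation then falls while the mRNA of Atf4, which has upstream open reading frames, is translated more. Atf4 protein, partnered by other bZIP factors, induces genes of amino acid supply, further transcription factors such as Ddit3 (CHOP), and feedback regulators, and ATF4 signalling is known in neurons after axon injury and in ALS models. Arrays report mRNA only, so neither eIF2 phosphorylation nor Atf4 protein was measured.

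The bases upstream of the annotated starts are shown first because some of the members hold a known control element there. The C/EBP-ATF response element, to which Atf4 binds with a C/EBP partner, was searched as TGATGNAA on both strands in the 250 bases before the start (RefSeq promoter table, build GRCm38.p6, all 10 genes matched, 11 windows). It was present in 3 of the 10 genes, Chac1, Nupr1 and Fgf21, and in 3.45% of all 32851 windows of that length. All 3 matches read TTGCATCA in the direction of the gene. The cAMP response element TGACGTCA, a palindrome, was in the window of Ppp1r15a and in 1.55% of all windows. The endoplasmic reticulum stress response element, searched on both strands as CCAAT followed after any 9 bases by CCACG, was in none of the members' windows and in 0.113% of all. The windows below are printed 5' to 3' in the direction of the gene with the matched letters in capitals, and Ddit3, the member with the lowest p values, is added although its window holds none of the motifs. They lie at chr2:119350992-119351241 (plus strand) for Chac1, chr7:126625471-126625720 (minus strand) for Nupr1, chr7:45615491-45615740 (minus strand) for Fgf21, chr7:45526269-45526518 (minus strand) for Ppp1r15a and chr10:127290543-127290792 (plus strand) for Ddit3.
Chac1: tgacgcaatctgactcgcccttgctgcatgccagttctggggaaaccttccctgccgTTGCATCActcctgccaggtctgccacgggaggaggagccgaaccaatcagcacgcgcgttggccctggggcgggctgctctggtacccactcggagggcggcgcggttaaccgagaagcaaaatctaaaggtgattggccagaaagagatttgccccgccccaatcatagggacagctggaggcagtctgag
Nupr1: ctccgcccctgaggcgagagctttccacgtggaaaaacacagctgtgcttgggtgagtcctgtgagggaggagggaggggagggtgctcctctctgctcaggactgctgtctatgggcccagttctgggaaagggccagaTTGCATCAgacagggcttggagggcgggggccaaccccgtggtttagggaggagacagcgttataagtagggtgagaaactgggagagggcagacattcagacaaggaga
Fgf21: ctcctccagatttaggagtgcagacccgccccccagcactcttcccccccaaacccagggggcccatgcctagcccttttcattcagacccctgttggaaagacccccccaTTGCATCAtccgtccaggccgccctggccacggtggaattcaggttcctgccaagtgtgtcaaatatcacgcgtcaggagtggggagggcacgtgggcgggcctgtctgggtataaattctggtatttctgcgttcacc
Ppp1r15a: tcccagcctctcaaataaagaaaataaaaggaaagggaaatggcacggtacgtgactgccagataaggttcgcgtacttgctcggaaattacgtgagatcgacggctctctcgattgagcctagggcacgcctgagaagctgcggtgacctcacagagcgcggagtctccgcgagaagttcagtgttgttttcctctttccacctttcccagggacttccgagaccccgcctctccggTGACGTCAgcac
Ddit3: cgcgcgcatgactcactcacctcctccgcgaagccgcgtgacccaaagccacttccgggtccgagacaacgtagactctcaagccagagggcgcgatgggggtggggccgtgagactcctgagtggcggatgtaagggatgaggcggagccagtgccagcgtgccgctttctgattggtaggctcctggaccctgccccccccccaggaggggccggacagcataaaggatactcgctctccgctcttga
The matches lay 193 to 186 bases before the start of Chac1, 139 to 132 before that of Fgf21, 110 to 103 before that of Nupr1 and 12 to 5 before that of Ppp1r15a. A match describes letters and not binding, and motifs outside these windows were not searched.

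Of the 10 genes, 5 (Atf4, Ddit3, Chac1, Nupr1 and Fgf21) were higher in SOD1G93A than in WT motoneurons at week 11, at week 15 with vehicle and at week 15 with G-CSF. Trib3 and Sesn2 passed the test only in vehicle-treated mice at week 15, Atf5 and Ppp1r15a in no comparison, and Ddit4 only between the WT groups of both ages. No member was lower anywhere, and none differed between G-CSF and vehicle. A call required, in limma over all 31352 filtered transcripts, a fold of at least 1.5, an adjusted p (Benjamini-Hochberg) under 0.1 and a p before adjustment under 0.05. At week 11, 7 of the 15 member transcripts were higher, against 1.13% of all filtered transcripts, and none lower, against 0.188%. At week 15 with vehicle 8 were higher, against 1.72%, and none lower, against 4.2%. With G-CSF 6 were higher than in WT, against 0.348%, and none lower, against 0.778%. Without G-CSF mouse 2, G-CSF mouse 7 or WT mouse 7 of week 15, 3 were left with G-CSF, Ddit3 and both probe sets of Nupr1, and of 28 alternatives Fgf21 lost its call with G-CSF in 19 and Atf4 in 14. All SOD1G93A mice lay above all WT mice for 6 member transcripts at week 11 (0.456% of all transcripts), for 5 at week 15 with vehicle (0.612%) and for 3 with G-CSF (0.306%). Each gene is described at its reference probe set, the one of highest mean, unless another is named. The median log2 difference of the 10 genes was 0.86 at week 11, 0.92 at week 15 with vehicle and 0.65 with G-CSF, while that over the reference probe sets of all genes was 0.03, 0 and 0. The arrays of 3 mice lay farthest from their group medians on the first 3 principal components, the main axes of variation. They were WT mouse 6 of week 11 (distance 143.6), vehicle mouse 5 (115.3) and vehicle mouse 3 (106.2). G-CSF mouse 3 came next (91.1) and was left in. Without the 3 arrays, 7 member transcripts were called in each of the 3 comparisons with WT. Sesn2 then lost its call with vehicle (0.65) and Ppp1r15a gained one with G-CSF. The comparisons of vehicle and of G-CSF with WT share the same 7 WT mice and are not independent of each other.

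**Figure D1:**
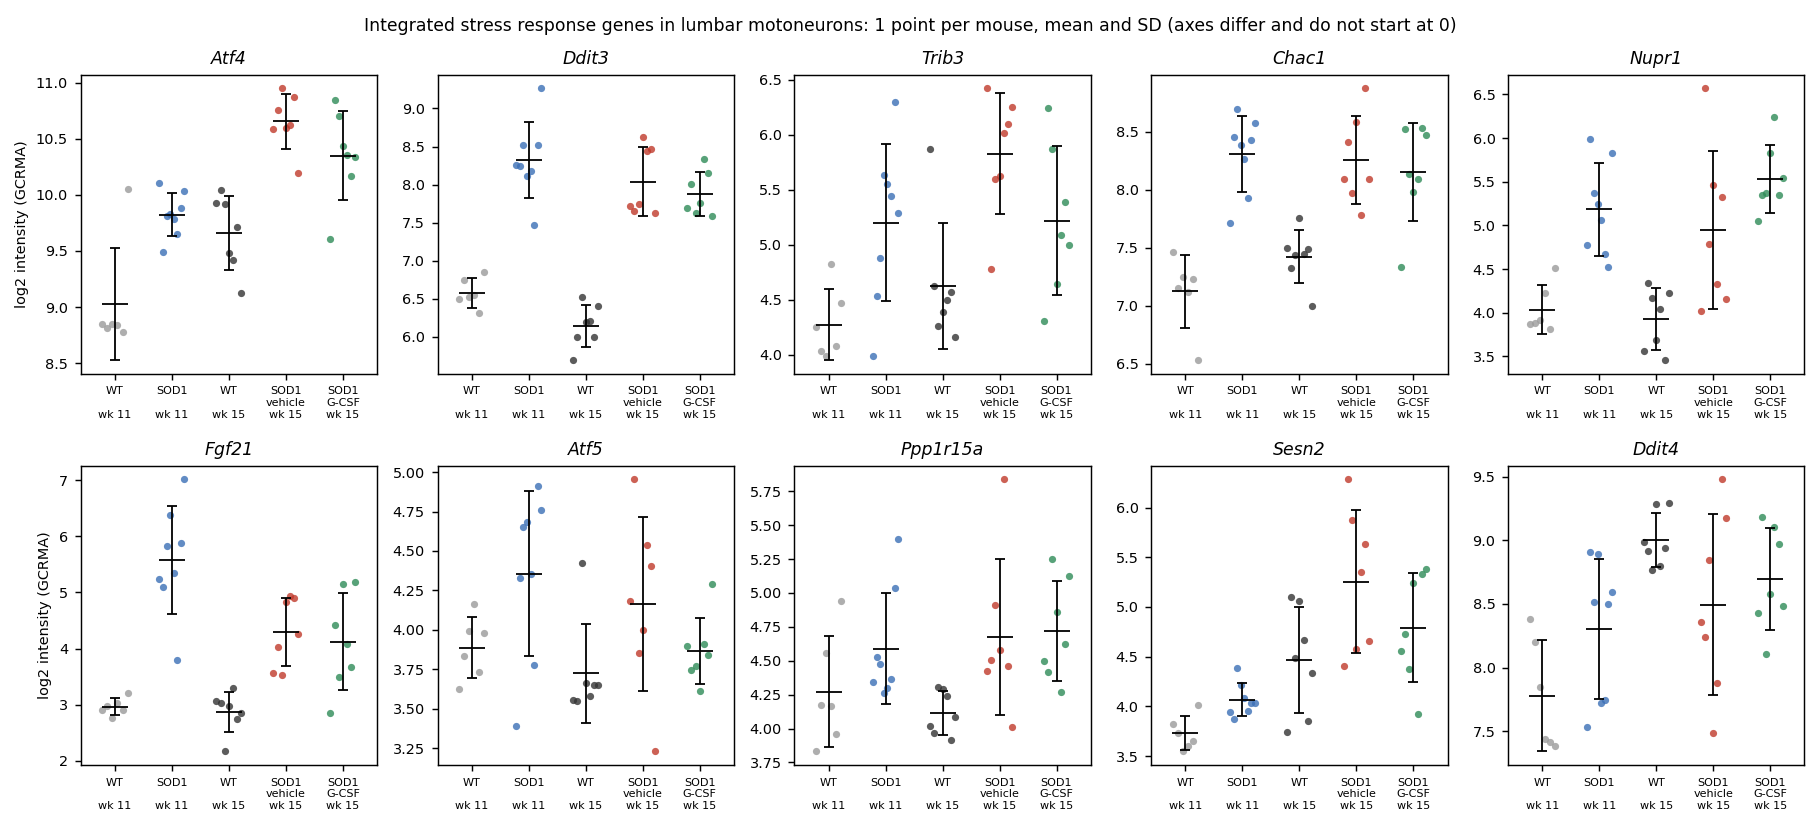
Log2 intensity (y axis, its range differing between panels) of each gene at its reference probe set in the 5 groups (x axis), 1 point per mouse, with mean and SD as black bars. Ddit3 in the SOD1G93A mice lies above all WT mice of its week in each group, while Ddit4 in WT mice is higher at week 15 than at week 11 by 1.22.

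Ddit3, the transcription factor CHOP that is linked to death of stressed cells, separated SOD1G93A from WT motoneurons most clearly of the members. At week 11 its log2 intensity ran from 6.31 to 6.85 in WT mice (median 6.53) and from 7.46 to 9.27 in SOD1G93A mice (median 8.25). At week 15 it ran from 5.69 to 6.52 in WT (median 6.19), from 7.62 to 8.63 with vehicle (median 7.74) and from 7.58 to 8.34 with G-CSF (median 7.75). No SOD1G93A mouse of either age or treatment came down to a WT mouse of its week. Ddit3 rose 3.35-fold at week 11 (1.74 on the log2 scale, SE 0.20, limma adjusted p = 7.64e-06) and ranked 2 among the 31352 transcripts by p. It rose 3.73-fold with vehicle at week 15 (1.90, SE 0.20, adjusted p = 1.57e-06) and 3.33-fold with G-CSF (1.74, SE 0.20, adjusted p = 1.33e-05), with the smallest p of all transcripts in both comparisons. The other Ddit3 probe set, 1443897_at, lay near the array medians, with group means from 3.08 to 3.50, and differed by 0.31, 0.42 and 0.21 in these comparisons without passing the test. Across mice its deviations from the group means went with those of 1417516_at at r = 0.16 (n = 35).

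Atf4, the transcription factor at the centre of the pathway, was read by 2 filtered probe sets that both rose with SOD1G93A but by different amounts at each age. On 1438992_x_at WT mice at week 11 ran from 8.77 to 10.05 (median 8.84) and SOD1G93A mice from 9.50 to 10.10 (median 9.82), and the ranges overlap through 1 WT mouse at 10.05. The log2 difference was 0.80 (SE 0.19, adjusted p = 0.0385). At week 15 the same probe set ran from 9.12 to 10.04 in WT and from 10.20 to 10.95 with vehicle, with no overlap, a difference of 1.00 (SE 0.19, adjusted p = 0.0021). With G-CSF it ran from 9.61 to 10.85, and 6 of 7 mice lay above all WT mice (0.69, SE 0.19, adjusted p = 0.0799). On 1448135_at the week-11 ranges were apart, 7.21 to 7.91 in WT and 8.28 to 9.11 in SOD1G93A mice, and the difference was 1.06 (SE 0.13, adjusted p = 1.33e-05), a fold of 2.08. At week 15 this probe set ran from 7.14 to 7.44 in WT and from 7.48 to 8.05 with vehicle, again without overlap, but the difference of 0.54 (SE 0.13, adjusted p = 0.0145) is a fold of 1.45 and so below the required 1.5. With G-CSF the difference was 0.33 (SE 0.13, adjusted p = 0.245). The probe sets thus agree on a higher Atf4 mRNA in SOD1G93A motoneurons at week 11, where both were called. At week 15 both differed in the same direction, but the calls with vehicle and with G-CSF rest on 1438992_x_at alone. They do not agree on the course between the ages.

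Between the WT groups the Atf4 probe sets went opposite ways, by 0.63 on 1438992_x_at from week 11 to week 15 (SE 0.19, adjusted p = 0.057, called) and by -0.31 on 1448135_at (SE 0.13, adjusted p = 0.2). Their deviations from the group means were nearly unrelated (r = 0.09, n = 35). The 5 genes whose deviations were most like those of 1438992_x_at, of 14246 other genes, were Flywch2 (r = 0.82), Ctu2 (0.80), Ewsr1 (0.79), Cd160 (0.78) and 2310061I04Rik (0.78). For Ddit3 they were Tor3a (0.67), Cdkn1a (0.63), Slc25a28 (0.61), Rslcan18 (0.61) and Poll (0.59). These are correlations over the 35 arrays, which share normalisation and amplification.

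Atf5, a related bZIP factor whose mRNA is also under translational control, did not pass the test in any comparison. At week 11 it ran from 3.62 to 4.16 in WT mice (median 3.91) and from 3.39 to 4.91 in SOD1G93A mice (median 4.50). Of the 8 SOD1G93A mice 6 lay above all WT mice and 1 below all of them, and the difference was 0.47 (SE 0.22, adjusted p = 0.408). At week 15 the vehicle group was equally wide, from 3.23 to 4.95, with a difference of 0.44 from WT (SE 0.21, adjusted p = 0.248). With G-CSF the difference was 0.14 (SE 0.21, adjusted p = 0.829).

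**Figure D2:**
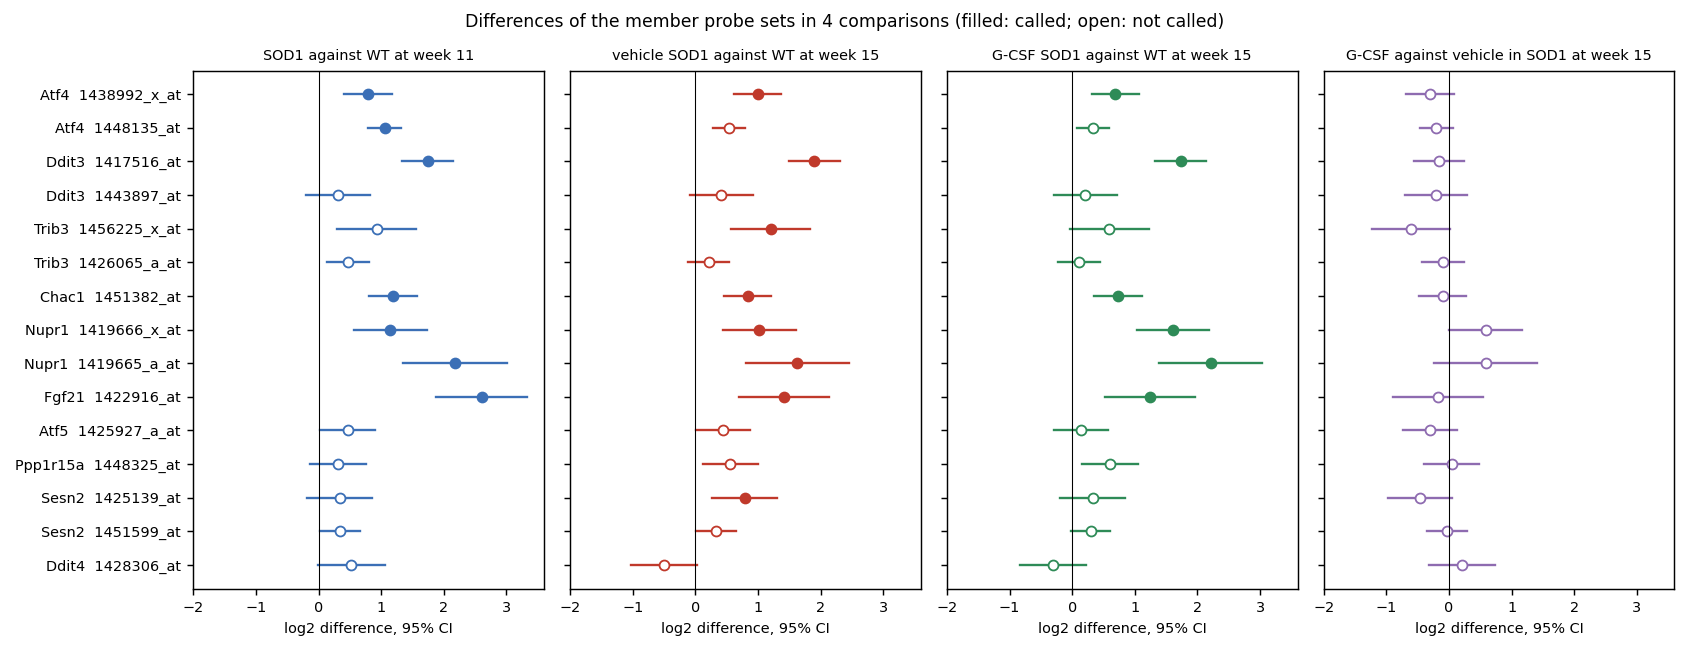
Log2 difference (x axis) of the 15 filtered member probe sets (y axis) with its 95% confidence interval in 4 comparisons, filled where called changed. Filled points stand only on the positive side, and the G-CSF against vehicle panel holds none.

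Chac1, which degrades glutathione, rose at both ages. At week 11 WT mice ran from 6.53 to 7.46 (median 7.20) and SOD1G93A mice from 7.72 to 8.70 (median 8.41). At week 15 WT mice ran from 7.00 to 7.76, vehicle mice from 7.78 to 8.88 and G-CSF mice from 7.33 to 8.54. The SOD1G93A and WT ranges were apart at week 11 and, with vehicle, at week 15, while 6 of 7 G-CSF mice lay above all WT mice. The differences were 1.18 (SE 0.19, adjusted p = 0.000731), 0.84 (SE 0.19, adjusted p = 0.00936) and 0.73 (SE 0.19, adjusted p = 0.0579).

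Trib3, a pseudokinase that is induced by Atf4 and Ddit3 and restrains them, varied widely between SOD1G93A mice. At week 11 WT mice ran from 3.98 to 4.83 (median 4.16) and SOD1G93A mice from 3.99 to 6.29 (median 5.36), so that 6 of 8 lay above all WT mice. The difference of 0.93 (SE 0.31, adjusted p = 0.187) did not pass. At week 15 WT mice ran from 4.16 to 5.87 (median 4.50) and vehicle mice from 4.78 to 6.42 (median 6.01), a rise of 1.20 (SE 0.31, adjusted p = 0.0229). The difference with G-CSF was 0.59 (SE 0.31, adjusted p = 0.423). The second probe set, 1426065_a_at, lay lower and differed by 0.47, 0.21 and 0.11 with no call, and its deviations went with those of the first at r = 0.54.

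Ppp1r15a (GADD34), the stress-induced subunit that directs a phosphatase to eIF2 and so closes the response, did not pass. At week 11 WT mice ran from 3.83 to 4.94 and SOD1G93A mice from 4.26 to 5.40, with a difference of 0.32 (SE 0.22, adjusted p = 0.663). At week 15 the differences were 0.56 with vehicle (SE 0.22, adjusted p = 0.142) and 0.60 with G-CSF (SE 0.22, adjusted p = 0.21), and 6 of 7 mice of each group lay above all WT mice. The 95% interval of the vehicle difference ran from 0.12 to 1.00.

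Nupr1, a small chromatin-associated stress protein, rose on both of its probe sets in all 3 comparisons with WT. On 1419666_x_at WT mice ran from 3.82 to 4.52 at week 11 and SOD1G93A mice from 4.52 to 5.99, each SOD1G93A mouse above all WT mice. At week 15 WT mice ran from 3.46 to 4.35, vehicle mice from 4.02 to 6.57 and G-CSF mice from 5.05 to 6.24. The vehicle group overlapped with WT, 4 of its 7 mice lying above all WT mice, and the G-CSF group did not overlap. The differences were 1.15 (SE 0.29, adjusted p = 0.0535), 1.02 (SE 0.28, adjusted p = 0.0361) and 1.61 (SE 0.28, adjusted p = 0.00393). On 1419665_a_at, which moved with it across mice at r = 0.85, they were 2.18 (SE 0.41, adjusted p = 0.00579), 1.63 (SE 0.41, adjusted p = 0.0186) and 2.21 (SE 0.41, adjusted p = 0.00504).

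Fgf21, a secreted hormone of metabolic stress, showed the largest log2 difference of the members at week 11, from a WT level with little signal over background. It lay below the array median in all 6 WT mice, from 2.77 to 3.21, and above it in all 8 SOD1G93A mice, from 3.80 to 7.01 (median 5.59). The difference of 2.61 (SE 0.36, adjusted p = 7.38e-05) starts from below the array medians, so its size in folds is uncertain. At week 15 WT mice ran from 2.17 to 3.30 and vehicle mice from 3.53 to 4.94 (median 4.26), again without overlap, with a difference of 1.42 (SE 0.35, adjusted p = 0.0186). G-CSF mice ran from 2.86 to 5.19 (median 4.07), 6 of 7 above all WT mice, and the difference of 1.24 (SE 0.35, adjusted p = 0.0999) only just met the threshold. Of 5 Fgf21 receptor genes 3 were tested (Fgfr1, Fgfr2 and Fgfr3), and none passed in any comparison. Fgfr4 and Klb did not pass the filter. Of all filtered transcripts 1.13% were higher at week 11 and 1.72% at week 15 with vehicle. The absence of calls on 3 genes is near that background.

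Sesn2 and Ddit4 (REDD1), stress-induced inhibitors of the growth kinase mTORC1, did not move together. Sesn2 ran at week 11 from 3.55 to 4.02 in WT and from 3.87 to 4.39 in SOD1G93A mice, with a difference of 0.34 (SE 0.26, adjusted p = 0.707). At week 15 it ran from 3.74 to 5.10 in WT and from 4.40 to 6.28 with vehicle, and rose by 0.79 (SE 0.25, adjusted p = 0.0717), with 4 of 7 mice above all WT mice. With G-CSF the difference was 0.33 (SE 0.25, adjusted p = 0.626). Its probe set 1451599_at differed by 0.34, 0.33 and 0.29 without a call, and the probe sets did not vary together across mice (r = -0.09). Ddit4 was 0.53 higher in SOD1G93A mice at week 11 (SE 0.26, adjusted p = 0.466), where WT mice ran from 7.38 to 8.38 and SOD1G93A mice from 7.54 to 8.91. At week 15 the sign was the opposite, -0.51 with vehicle (SE 0.26, adjusted p = 0.277) and -0.31 with G-CSF (SE 0.26, adjusted p = 0.662). WT mice then ran from 8.77 to 9.29, while vehicle mice spread from 7.49 to 9.48, with 4 below all WT mice and 1 above them.

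Ddit4 was the member that changed most between WT mice of the 2 ages, by 1.22 (SE 0.27, adjusted p = 0.00622), and each of the 7 week-15 WT mice lay above all week-11 WT mice. The share of all transcripts for which these WT groups lay apart was not counted, so the separation only describes Ddit4. Of the 15 member transcripts 2 were called in that comparison, both higher (Ddit4 and Atf4 1438992_x_at) and none lower, against 3.29% higher and 2.26% lower of all transcripts. Age and cohort cannot be told apart between these WT groups. The 18S control probe set differed between the ages as well, with 9.23 to 10.86 in WT mice at week 11 and 12.70 to 13.50 at week 15. With that control as a covariate the Ddit4 difference was 0.48 and that of Atf4 0.74, and neither was called. The 18S ranges of these WT groups do not overlap, so this fit cannot separate 18S from week. The lost calls therefore do not show whether 18S had a part. Within each week the 18S ranges of SOD1G93A and WT mice overlapped. Of 5 oligodendrocyte markers tested 3 were also higher in WT mice at week 15 than at week 11, Mobp by 1.12, Mag by 0.95 and Cnp by 0.60, and the median of the 5 was 0.60. Their mean log2 intensity ran from 7.07 to 8.59 in WT mice at week 11 and from 8.43 to 8.90 at week 15, and their part in the difference of Ddit4 was not tested.

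Whether the SOD1G93A effect itself differed between the ages was tested as a difference of differences, week 15 with vehicle against week 11. No member passed, while 2.93% of all filtered transcripts did (919 calls, and 5684 at an unadjusted p under 0.05). For Ddit3 the difference of effects was 0.15, with a 95% interval from -0.43 to 0.73. The members with an unadjusted p under 0.05 were Fgf21, at -1.19 (interval -2.21 to -0.17, adjusted p = 0.206), Ddit4, at -1.03 (interval -1.78 to -0.28, adjusted p = 0.142), and Atf4 on 1448135_at, at -0.52 (interval -0.89 to -0.15, adjusted p = 0.134). Their unadjusted p were 0.0233, 0.00851 and 0.00702 in limma. For Sesn2 it was 0.45 (interval -0.28 to 1.18) and for Trib3 0.27 (interval -0.62 to 1.17), so their calls at week 15 alone do not show a different effect at that age.

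**Figure D3:**
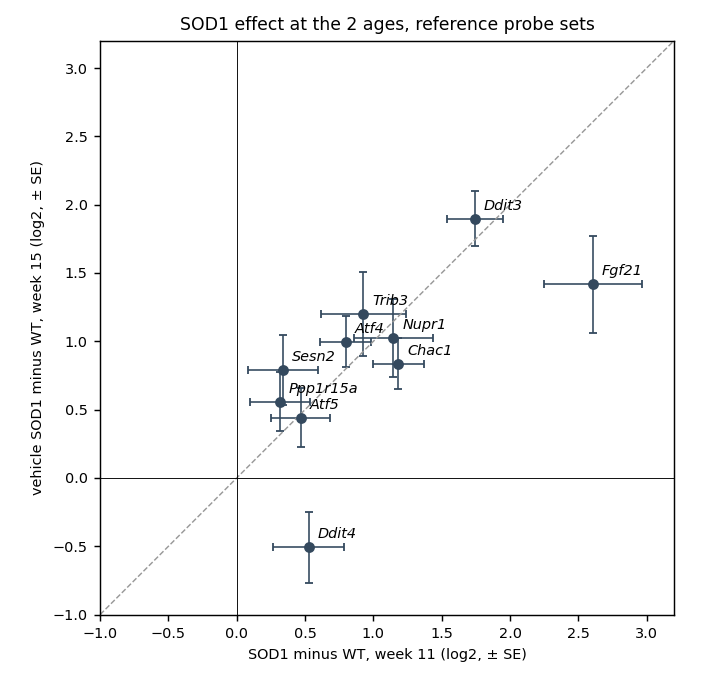
Log2 difference between SOD1G93A and WT mice at week 11 (x axis) and, with vehicle, at week 15 (y axis) for the 10 genes at their reference probe sets, with SE bars and the line of equal effects dashed. Ddit3 (1.74 and 1.90) sits near the line, Fgf21 (2.61 and 1.42) and Ddit4 (0.53 and -0.51) below it.

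G-CSF was compared with vehicle in the 14 treated SOD1G93A mice. None of the 15 member transcripts was called, against 0.0383% of all filtered transcripts (12 calls, and 2602 at an unadjusted p under 0.05). Only Nupr1 1419666_x_at had an unadjusted p under 0.05 among the members, 0.59 higher with G-CSF (95% interval 0.005 to 1.16, adjusted p = 0.595), and its groups overlapped. Trib3 differed by -0.61 (interval -1.24 to 0.02), Sesn2 by -0.46 (interval -0.98 to 0.05) and Atf4 by -0.31 (interval -0.69 to 0.07). For Ddit3 the difference was -0.16, with an interval from -0.57 to 0.25, and for Chac1 -0.10, with an interval from -0.48 to 0.28. Fgf21 gave -0.17 (interval -0.89 to 0.54) and Ppp1r15a 0.04 (interval -0.40 to 0.49). Each interval gives the differences compatible with the values of 7 mice in each group, and a missed threshold does not show equal levels.

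**Figure D4:**
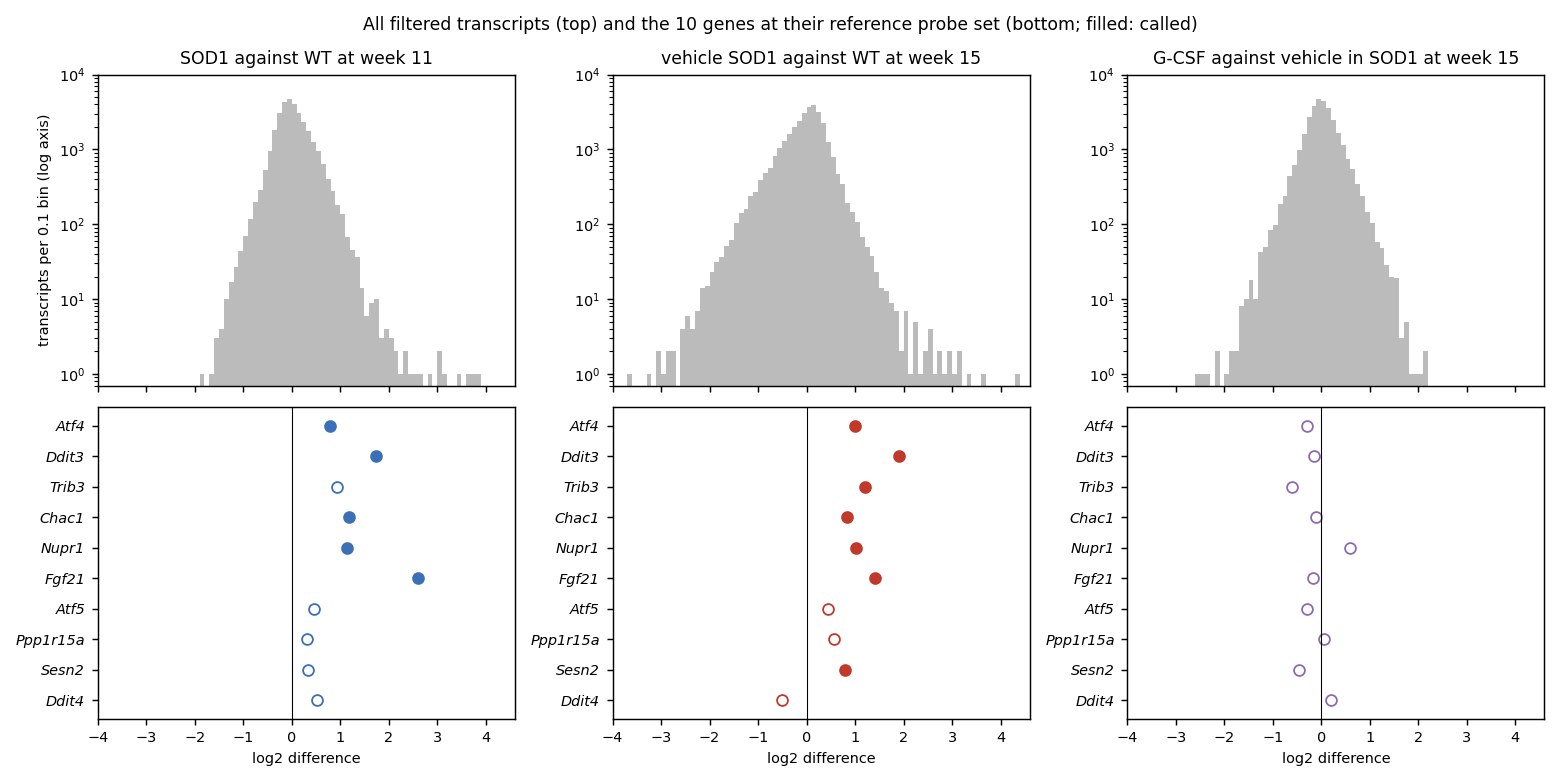
Number of all 31352 filtered transcripts per bin of 0.1 log2 difference (top row, log axis) and the difference of each of the 10 genes at its reference probe set (bottom row, filled where called) in 3 comparisons. The median of the 10 genes is 0.86 at week 11 and 0.92 at week 15 with vehicle, and -0.17 between G-CSF and vehicle.

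Mice of the same group did not rank alike on all members. Over the 45 pairs of genes the median correlation of deviations from the group means was 0.20 across the 35 mice, while that of members with other genes was 0. By Pearson correlation Ddit3 and Fgf21 varied together most (r = 0.52), then Chac1 with Ddit4, Nupr1 with Atf5 and Atf5 with Ppp1r15a (each r = 0.43). By rank correlation the order differed, with Ddit3 and Nupr1 at 0.41, Chac1 and Ddit4 at 0.41 and Ddit3 and Fgf21 at 0.40. Trib3 and Nupr1 went opposite ways (r = -0.41). At week 11 SOD1G93A mouse 8 was the highest of its group for 3 of the 10 genes and the lowest for none, and mouse 1 the lowest for 4. With G-CSF, mouse 1 was the lowest for 5 of the 10. WT mouse 6 at week 11 was the highest of its group for 6 of the 10 genes, and its array also stood apart from the others over all transcripts.

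**Figure D5:**
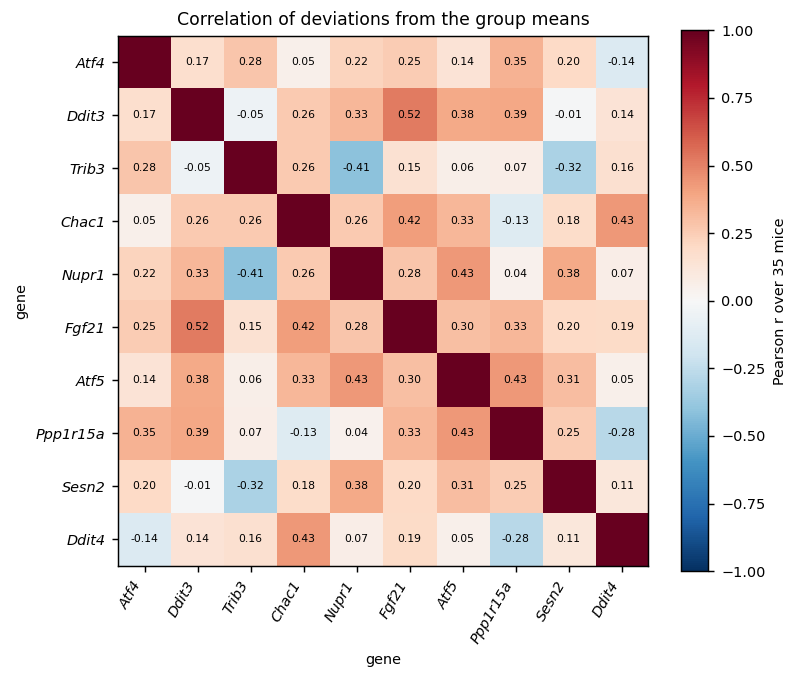
Pearson correlation of the deviations from the group means for each pair of the 10 genes over 35 mice, red for positive and blue for negative values, the diagonal being 1. The pair of highest value is Ddit3 with Fgf21 (0.52) and the lowest is Trib3 with Nupr1 (-0.41).

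Upstream of the members, the eIF2 kinases, eIF2 and eIF2B subunits and phosphatase partners gave counts near the share of all transcripts. Of 13 genes tested none was called at week 11, where 1.13% of all filtered transcripts were higher and 0.188% lower. At week 15 with vehicle none was higher and 1 was lower, against 1.72% and 4.2% of all, and that was the eIF2B subunit Eif2b1 (-1.15, adjusted p = 0.0318). The median difference of the 13 was 0.16 at week 11 and -0.16 at week 15. Phosphorylation, by which these proteins are regulated, is not seen by arrays. Of 8 bZIP factors that pair with Atf4 or Ddit3, Atf3, an injury-induced partner, was higher by 3.85 at week 11 (adjusted p = 6.1e-05), by 3.32 at week 15 with vehicle (adjusted p = 0.0003) and by 2.41 with G-CSF (adjusted p = 0.019). Cebpb was higher by 1.03 at week 11 (adjusted p = 0.0064). Cebpg differed by 0.77 at week 11 (adjusted p = 0.47) and by -0.97 at week 15 with vehicle (adjusted p = 0.14), neither called. The difference between these effects of opposite sign, -1.74, was called (adjusted p = 0.099).

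Downstream, 24 other known Atf4 targets were tested, and 14 were higher and none lower at week 11, against 1.13% and 0.188% of all filtered transcripts. The list was chosen with earlier results of these data known, so these counts describe it and are not independent support. The largest differences were those of Phgdh, the first enzyme of serine synthesis (3.05), the amino acid transporters Slc7a3 (2.36) and Slc7a5 (1.75), the growth arrest gene Gadd45a (2.34), Shmt2, an enzyme of serine and glycine interconversion (1.37), and the tryptophanyl-tRNA synthetase Wars (1.12). At week 15 with vehicle 6 were higher and none lower, against 1.72% and 4.2%. They were Phgdh (2.97), Shmt2 (1.31), the serine synthesis enzyme Psat1 (1.15), Slc7a3 (1.10), the lipoprotein receptor Vldlr (1.02) and the translation repressor Eif4ebp1 (0.96). The median difference was 0.93 at week 11 and 0.42 at week 15. With G-CSF 3 were higher than in WT, namely Phgdh (2.65), Shmt2 (1.34) and Psat1 (0.91), against 0.348% of all transcripts, and none differed between G-CSF and vehicle. In the test between ages 2 were lower, Slc7a5 (-1.19, adjusted p = 0.092) and Herpud1 (-1.15, adjusted p = 0.096), against 2.93% of all transcripts changed either way. Between WT mice 3 were higher at week 15, Phgdh (1.21), Slc7a5 (1.07) and Wars (0.93), against 3.29% of all.

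The other arms of the unfolded protein response, run by Ern1 with Xbp1 and by Atf6, gave no call in SOD1G93A mice. Of 16 genes tested, which include the chaperones Hspa5 and Hsp90b1, none was called at week 11, at week 15 with vehicle or with G-CSF. Since 1.13%, 1.72% and 0.348% of all filtered transcripts were higher in these comparisons, fewer than 1 higher call would fall on 16 genes at those shares, and the absence of calls is near the background. Their median difference was 0.12 at week 11 and -0.36 at week 15 with vehicle. Hspa5 differed by 0.51 at week 11 (adjusted p = 0.3) and by -0.39 at week 15 (adjusted p = 0.27). Between WT mice 4 were higher at week 15 (Hsp90b1, Calr, Pdia4 and Sel1l), against 3.29% of all. Of 12 mTORC1 regulators near Sesn2 and Ddit4 none was called at week 11, and 1 was lower at week 15 with vehicle, Sesn3 (-0.91, adjusted p = 0.031), a relative of Sesn2, against 4.2% lower of all transcripts.

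All 10 motoneuron markers lay above the 20th centile of intensity of every array, 8 of them above the array median, and their mean log2 intensity ran from 7.48 to 9.01. Of them 1, the neurofilament Nefm, was lower with vehicle at week 15 (-0.90, adjusted p = 0.068), and 1, the receptor Ret, was higher with G-CSF than in WT (0.65, adjusted p = 0.037). Of all filtered transcripts 4.2% were lower with vehicle and 0.348% higher with G-CSF. The median difference of the 10 was -0.29 with vehicle and -0.44 with G-CSF. In such bulk samples, fewer cells of a type and less RNA per cell cannot be told apart. The motoneuron marker Chat had group means from 3.07 to 3.44, near the array medians. Above the array median on every array were also 7 of 8 astrocyte and 4 of 5 oligodendrocyte markers. The marker levels therefore do not show how pure the samples were. Of 14 microglial markers 9 lay above the 20th centile on every array and 5 of them above the array median. Aif1 and Itgam were at or below the 20th centile on 25 to 30 of the 35 arrays. The mean of the 14 ran from 3.91 to 4.14 in WT and from 3.71 to 4.83 in SOD1G93A mice at week 11. At week 15 it ran from 3.47 to 3.96 in WT, from 4.13 to 5.34 with vehicle and from 3.69 to 5.89 with G-CSF. Of the 12 tested microglial markers 6 were higher with vehicle, against 1.72% of all filtered transcripts. They were Tyrobp (2.82), Ctss (1.885), Lyz2 (1.62), C1qb (1.58), Csf1r (1.39) and C1qc (0.69). With the microglial mean as a covariate all 7 calls at week 11 were kept, while at week 15 Ddit3 alone was called, at 1.80 with vehicle and 1.66 with G-CSF. Over all transcripts 62 and 2 calls remained in those comparisons. The vehicle differences were then 1.68 and 1.00 for the probe sets of Nupr1, 1.07 for Trib3, 0.78 for Chac1, 0.71 for Atf4, 0.53 for Sesn2 and 0.44 for Fgf21. With G-CSF they were 2.26 and 1.59 for the probe sets of Nupr1, 0.68 for Chac1, 0.45 for Atf4 and 0.42 for Fgf21. Of the members called with vehicle Fgf21 was the one whose difference fell most, from 1.42. The microglial means of vehicle and WT mice at week 15 did not overlap, so this fit cannot separate that mean from genotype. A call lost there does not show that microglia had a part in the difference. All 8 astrocyte markers lay above the 20th centile on every array, and Gfap was the 1 of the 8 called at week 11 (2.14 higher in SOD1G93A mice) and at week 15 with vehicle (3.70 higher). Of all filtered transcripts 1.13% and 1.72% were higher in those comparisons. The median difference of the 8 was 0.22 and 0.05. Their mean ran from 7.13 to 7.78 in WT and from 7.24 to 8.22 in SOD1G93A mice at week 11, and from 7.25 to 8.10 in WT and from 7.73 to 8.37 with vehicle at week 15. With the astrocyte mean as a covariate, 5 of 7 calls were kept at week 11 and 6 of 8 at week 15, the difference of Ddit3 being 1.56 and 1.70. Of 5 endothelial markers tested none was called in any comparison, which is near the background for 5 genes, and their mean lay between 3.15 and 4.46 in all groups. What part these cells had in the differences of the members was not tested beyond these fits.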

How the data were processed

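Lumbar motoneurons of 35 mice in 5 groups were profiled, 1 array per mouse, after T7 amplification of the RNA of the dissected cells. The authors normalised the arrays with GCRMA in the Affymetrix Expression Console and deposited log2 intensities per probe set (45101, with array medians from 3.19 to 3.47), which were used as deposited. GCRMA adjusts for probe composition and quantile-normalises, so values are relative to the other transcripts, and amplification may narrow or widen differences. Arrays have no read depth, and the number of mice limits precision. Groups and replicate numbers come from the sample titles, and mice are the replicates. The vehicle treatment is not in the titles and comes from the source name of those samples. Genes were named through the platform's annotation, in which 34945 probe sets name 1 gene, 932 several and 9211 none.

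The filter of the study's methods was applied (above the 20th centile, 2.40, on at least 4 arrays and SD at or above the 30th centile, 0.241), leaving 31352 probe sets. All 5 groups were fitted in 1 limma model (version 3.58.1, R 4.3.3) with moderated two-sided tests and Benjamini-Hochberg adjustment over these probe sets. All p values and adjusted p values are from limma. A call needed p under 0.05, adjusted p under 0.1 and a fold of at least 1.5, the methods' thresholds. The fit was tested on simulated data. The methods' ANOVA with Tukey's comparison is an alternative. The text names all members with all their probe sets, the changed genes of largest difference, up to 6 in each list and comparison, and for Ddit3 and Atf4 the 5 genes of most alike deviations. The members and the lists were chosen with earlier results of these data known. Other alternatives were no filter, stricter or fewer thresholds, another quantile normalisation, only the compared groups, array weights, an intensity trend, covariates for 18S, Gapdh 3' minus 5' and microglial markers, the replicate number as a block, and leaving out 3 arrays that stood apart or each mouse. An astrocyte marker covariate was added after seeing the data. Promoter windows are from RefSeq (GRCm38.p6).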

Additional observations from a re-analysis of the deposited data

Results flagged for a closer look

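Of 75 combinations of a filtered member transcript and a group, 5 had 1 mouse far from the others by Dixon's criterion, and chance gives about 1 in 20, or 3.8 here. Atf4 1438992_x_at was 10.05 in WT mouse 6 at week 11, while the next highest was 8.85. In the same mouse Chac1 was 6.53, the lowest of its group, and the next lowest was 7.12. Its array was one of the 3 that stood apart over all transcripts, and without the 3 arrays 7 member transcripts were called at week 11. At week 15 in WT mice Atf5 was 4.42 in mouse 3, the next at 3.66, and Trib3 was 5.87 in mouse 1, the next at 4.62. With G-CSF, Sesn2 1451599_at was 4.93 in mouse 2, the next at 4.33. The causes were not tested.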

How the results depend on the processing

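The 23 calls of a member transcript in a comparison were refitted under the alternatives, 642 results in all, of which 556 kept the call, 86 lost it and 0 changed sign. Ddit3 1417516_at kept its call in 28 of 28 alternatives in each of the 3 comparisons with WT. The calls lost most often were those with G-CSF of Fgf21 (19 of 28) and Atf4 (14) and that of Sesn2 at week 15 (13). Against 6 calls with G-CSF, an adjusted p under 0.05 gave 3 and the microglial covariate 1. Against 8 calls with vehicle at week 15 the microglial covariate gave 1, in a fit that cannot separate this covariate from genotype. In the test between the ages, with 0 calls, array weights gave 1 (Ddit4) and the microglial covariate 1 (Fgf21). Between the WT groups, with 2 calls, an adjusted p under 0.05 gave 1 and the 18S covariate 0, in a fit that cannot separate 18S from week. Leaving out each mouse gave 5 to 8 calls at week 11, 7 to 10 with vehicle at week 15 and 0 to 0 between G-CSF and vehicle. It gave 3 to 6 with G-CSF against WT, the lowest without G-CSF mouse 2, G-CSF mouse 7 or WT mouse 7. It gave 0 to 1 between the ages, with Atf4 1448135_at called without WT mouse 3 of week 11 and Ddit4 without vehicle mouse 6 or 7. Between the WT groups it gave 1 to 3, and Ddit4 was the 1 call left without WT mouse 1, 2, 3, 4 or 5 of week 11 or WT mouse 2 or 3 of week 15. Samples of the same replicate number did not deviate together (r from -0.21 to 0.10), so the number is not a pairing. With the replicate number as a block the counts were 7 at week 11, 8 with vehicle and 5 with G-CSF at week 15 and 0 between G-CSF and vehicle. ANOVA with Tukey's comparison could not give a value for the difference of effects between ages. It called no member between G-CSF and vehicle, while over all transcripts it called 353 against 12 in limma. Transcripts near the array medians, such as Ddit3 1443897_at, have little signal over background, and smaller changes there may be missed.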
